A study of Homo sapiens with 8 samples.

Results

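The collagens, laminins and their partners in the basement membrane were examined in hCMEC/D3 cells, which come from human brain capillary endothelium, were immortalised, and are grown to model the blood-brain barrier. Members were taken by gene symbol alone: every gene named as a collagen chain or a laminin chain, both nidogens, the heparan sulfate proteoglycans HSPG2 and AGRN, the lysyl oxidase family (LOX and LOXL1 to LOXL4) and the collagen chaperone SERPINH1. The rule found 65 of the 23346 genes listed, among them 43 collagen and 12 laminin genes. Polyadenylated RNA from 8 replicates was sequenced, and all 8 carry the same labels, with no treatment, time point or other cell line, so that no contrast between conditions was possible. An immortalised line grown alone lacks the pericytes and astrocytes that also deposit matrix around brain capillaries. The labels do not say whether the replicates were separate cultures, so every p-value below measures only the spread between these libraries, which may be technical.

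The basement membrane is a thin sheet of extracellular matrix on which the endothelium rests. Laminins are secreted as trimers of an alpha, a beta and a gamma chain and form a polymer at the cell surface, while trimers of type IV collagen form another, cross-linked network, and nidogens and heparan sulfate proteoglycans connect the networks. In brain capillaries this sheet lies between endothelium, pericytes and the end feet of astrocytes, and mutations in COL4A1 or COL4A2 are a known cause of small-vessel disease of the brain.

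Levels are given as CPM, counts scaled to the library total after TMM normalisation, and between genes only as CPM per kilobase of the canonical transcript (RPKM). A gene was called detected when its CPM was at least 1 in all 8 libraries. Of the 65 members, 40 were detected, against a background of 51.3% of all genes listed. Library totals ran from 69388544 to 90205244 counts, so that 3 read pairs correspond to 0.0665 to 0.0865 CPM. Replicates 8, 2 and 7 stood apart from the other libraries in how counts depended on transcript length. The slope of a gene's log2 deviation from its mean on log2 transcript length was -0.33 in replicate 8, -0.22 in replicate 2 and -0.10 in replicate 7, and lay between 0.08 and 0.14 in the other 5 libraries. The authors' log2 values from conditional quantile normalisation, given for 47 members, are set beside the CPM for several results. The parameters of that normalisation are not given in the sources used here. A gap between genes on that scale may therefore not be per length.

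All 65 members together took 0.921% ± 0.139 (SD, n = 8) of the counts. The share was lowest in replicate 8, at 0.679% (95% Wilson interval 0.676 to 0.681), and highest in replicate 1, at 1.07% (1.06 to 1.07). These intervals cover counting error only. The 5 members with the most counts, COL4A2, COL8A1, COL4A1, LAMB1 and HSPG2, held 52.4% of the members' counts, and the first 10 held 79.0%. Per transcript length, 19 detected members had a mean of at least 10 RPKM and 4 had a mean under 1. The median over the detected members was 8.55 RPKM, beside 11.4 RPKM over the 11636 detected genes of known length. Neighbouring ranks were mostly not separable: only 4 of the 39 pairs of neighbours in the order of mean RPKM kept that order in all 8 libraries. These were COL4A2 above COL8A1, LOXL2 above AGRN, LAMA5 above LAMA4, and COL1A1 above COL12A1.

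**Figure D1:**
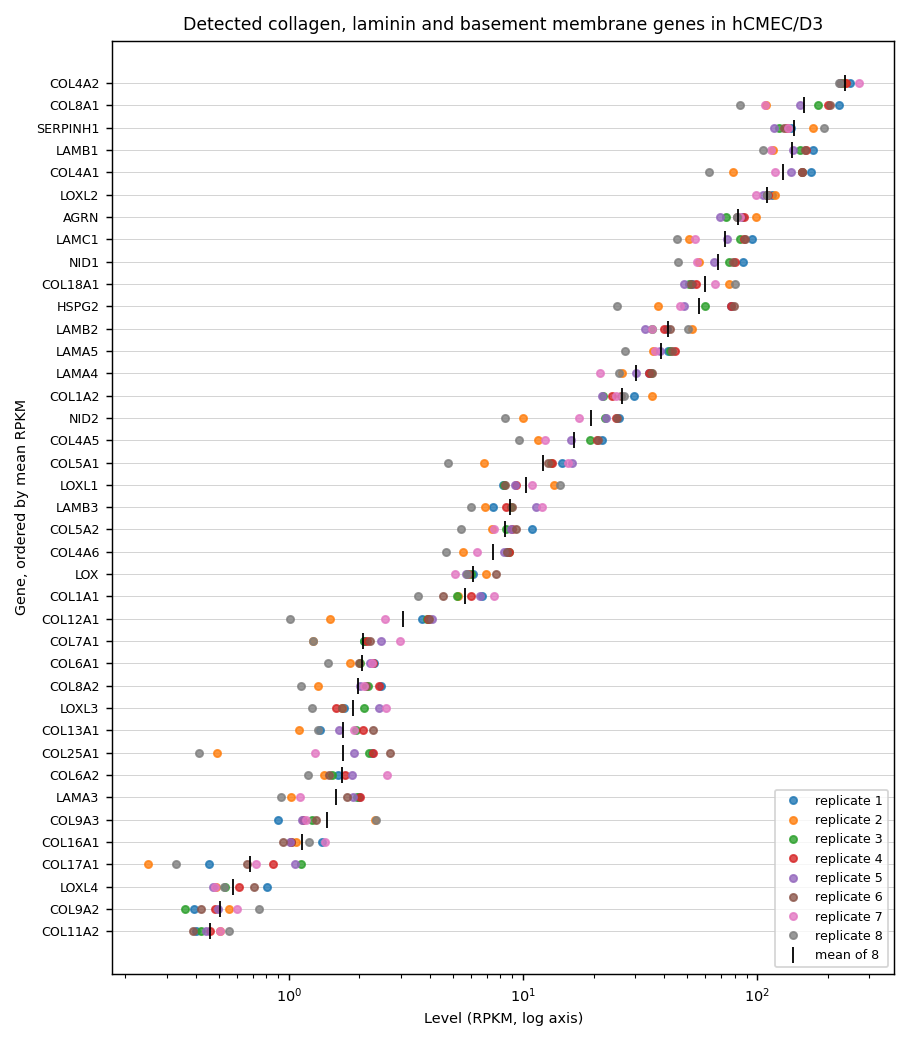
RPKM (logarithmic axis) of 39 detected members in order of their mean; each point is 1 of the 8 libraries and the bar is the mean. COL4A2 leads at 238 ± 16.3 RPKM on average, ahead of COL8A1 at 158 ± 52.6 RPKM.

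Type IV collagen was represented by COL4A2 and COL4A1 at high level and by COL4A5 and COL4A6 at lower level, and COL4A3 and COL4A4 were not detected. COL4A2 encodes the chain that joins COL4A1 products in the common trimer of vascular basement membranes, and it had the highest level of any member, 238 ± 16.3 RPKM (SD, n = 8), which placed it at rank 234 of 11636 genes. COL4A1 reached 129 ± 39.4 RPKM. In every library COL4A1 lay below COL4A2, with a mean RPKM ratio of 0.545 (range 0.280 to 0.687) and a mean log2 ratio of -0.95 ± 0.52. A sign-flip permutation test, exact and two-sided, gave p = 0.00781, the smallest value that 8 libraries allow, and 0.00928 after Benjamini-Hochberg adjustment over the 19 chain pairs compared. The same 2 p-values hold for every pair below whose ratio lay on one side in all 8 libraries, unless others are given. The test asks only whether both genes have equal levels, which most genes of unlike level would fail. No share over other gene pairs was computed.

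The genes stand head to head on chromosome 13 and are known to share a bidirectional promoter. In hg19, COL4A1 occupies 13:110801310-110959496 on the minus strand, with 52 exons in a canonical transcript of 6540 nucleotides, and COL4A2 occupies 13:110959631-111165373 on the plus strand, with 48 exons in 6446 nucleotides. Only 134 bases separate their listed starts. The RefSeq stretch of 126 bases between the starts in GRCh38.p14, chr13:110307158-110307283, plus strand, is shown because it lies before both genes. Capitals mark GGGCGG, the core of the GC box, as well as CCAAT. The motif TATAAA does not occur, and all 3 were read on both strands.
COL4A1 to COL4A2: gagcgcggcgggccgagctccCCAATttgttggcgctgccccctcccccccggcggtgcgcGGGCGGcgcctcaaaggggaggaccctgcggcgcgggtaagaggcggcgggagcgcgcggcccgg
GC content of this stretch is 80.2%. Among all RefSeq promoters, a window of the same length held GGGCGG in 34.6%, CCAAT in 21.9% and TATAAA in 6.23%. A match of letters is a description and not a binding site.

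Although they share this promoter and nearly the same transcript length, COL4A1 and COL4A2 differed in how they varied between the libraries. COL4A2 ran from 1434 to 1751 (median 1505) CPM, with its highest library only 1.22 times its lowest. COL4A1 ran from 407 to 1108 (median 963) CPM: it was 407 in replicate 8, 518 in replicate 2 and 782 in replicate 7, and lay between 913 and 1108 in the other 5. COL4A2 was also lowest in replicate 8, at 1434 CPM, where its next lowest library had 1455 CPM, and its highest value, 1751 CPM, was in replicate 7. The log2 ratio of the pair was accordingly -1.84 in replicate 8, -1.59 in replicate 2 and -1.18 in replicate 7, and between -0.54 and -0.70 in the others. Across the 8 libraries the levels showed Pearson r = 0.18 (exact permutation p = 0.684, adjusted 0.727 over 17 pairs) and Spearman rho = 0.357 (p = 0.389). Without replicates 2 and 8, the libraries farthest from the median, r was -0.534.

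On the authors' scale the gap between the chains kept its direction in all 8 libraries, at -0.96 ± 0.29, and was again widest in replicates 8, 2 and 7, at -1.44, -1.32 and -1.13, and narrowest in replicate 6, at -0.69. On that scale both chains were lowest in replicate 8, and r was 0.895 (exact permutation p = 0.0174, adjusted 0.0329), while rho was 0.524. The 3 libraries with a low ratio are those with a negative slope on transcript length, while the transcripts of the pair differ in GC content, 55.2% for COL4A1 and 61.8% for COL4A2. The part of either in the ratio was not tested.

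**Figure D2:**
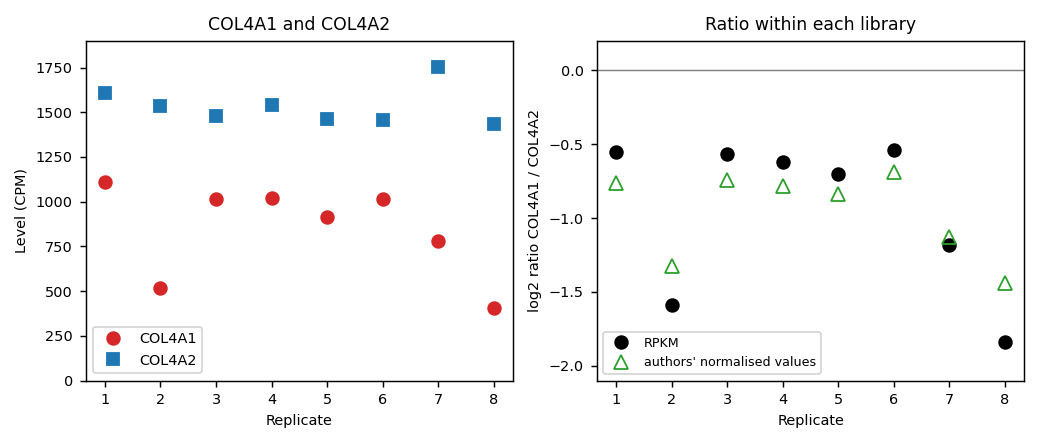
CPM of COL4A1 and COL4A2 in each of the 8 replicates, and the log2 ratio COL4A1/COL4A2 from RPKM (circles) and from the authors' normalised values (triangles). The ratio is below 0 throughout and lowest in replicates 8, 2 and 7 on both scales.

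COL4A5 and COL4A6 form another head-to-head pair, on chromosome X, with 369 bases between their listed starts. COL4A5, the chain altered in X-linked Alport syndrome, ran from 62.6 to 142 (median 115) CPM and averaged 16.5 ± 4.82 RPKM. COL4A6 ran from 31.3 to 58.3 (median 56.2) CPM and averaged 7.43 ± 1.63 RPKM. Both were lowest in replicate 8. COL4A5 was 2.20-fold above COL4A6 (log2 ratio 1.13 ± 0.16, higher in 8 of 8 libraries). The levels of these neighbours gave r = 0.959 and rho = 0.786 (exact permutation p = 5.70e-04, adjusted 0.00323 for r and 0.0475 for rho). All genes share the depth, length and GC differences between the libraries. The correlations here and elsewhere are given without a background over other gene pairs, which was not computed. Without replicates 2 and 8, r was 0.905, and the authors' values gave r = 0.859. COL4A5 lay below COL4A1 in all 8 libraries (log2 ratio -2.95 ± 0.18) and followed it closely, with r = 0.94 and rho = 0.976 (exact permutation p = 4.96e-05, adjusted 8.43e-04 for r; adjusted 0.00675 for rho), and r = 0.98 without replicates 2 and 8. The authors' values gave r = 0.864 for COL4A5 and COL4A1. By CPM, COL4A1 thus passed the test of correlation with a chain on another chromosome and missed it with its head-to-head neighbour, but the difference between these correlations was not tested. COL4A3 and COL4A4, the partners of COL4A5 in the kidney filter, averaged 0.242 ± 0.125 and 0.541 ± 0.159 CPM.

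Of the 12 laminin genes, 8 were detected, and the 3 kinds of chain were each dominated by the genes known from vessels. Among alpha chains, summed to 70.8 ± 10.8 RPKM, LAMA5 made up 54.7% ± 3.38, LAMA4 42.9% ± 3.32 and LAMA3 2.19%. LAMA4 and LAMA5 encode the alpha chains of the endothelial laminins, and the ratio of LAMA5 to LAMA4 is known to differ between vessel types. LAMA5 lay above LAMA4 in all 8 libraries, with a log2 ratio LAMA4/LAMA5 of -0.35 ± 0.20. The authors' values gave a wider gap, -1.45 ± 0.42, and CPM without length gave -1.01. LAMA5 ran from 311 to 507 (median 457) CPM; replicate 8 stood below the next library, at 409.8 CPM, by more than the other libraries differed from each other. By Dixon's gap rule LAMA5 was the one member of the 40 detected with a library apart, beside 2.08% of all detected genes. LAMA4 ran from 154 to 255.6 (median 235) CPM and was lowest in replicate 7. LAMA1 and LAMA2 were not detected, at 0.173 ± 0.0861 and 1.14 ± 0.284 CPM.

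LAMB1 supplied 73.2% ± 5.17 of the summed beta-chain level of 191 ± 22.8 RPKM, LAMB2 22.1% ± 5.36 and LAMB3 4.66%. LAMB1, at 141 ± 25.2 RPKM, had the highest level of the laminins per canonical length, and ran from 597 to 977 (median 831) CPM. LAMB2 ran from 189.7 to 299 (median 232) CPM. LAMB1 was 3.51-fold above LAMB2 (log2 ratio 1.76 ± 0.42, higher in 8 of 8), but this gap depended on the gene length taken, as it fell to 0.31 (adjusted p = 0.111, exact sign-flip permutation test) when all exons of each gene were merged. LAMC1 provided 98.1% ± 0.766 of the gamma chains' 74.0 ± 19.9 RPKM. LAMC1 ran from 360.0 to 754 (median 630.4) CPM. LAMC3 and LAMB4 were not detected, at 0.0949 ± 0.03 and 0.4 ± 0.193 CPM.

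**Figure D3:**
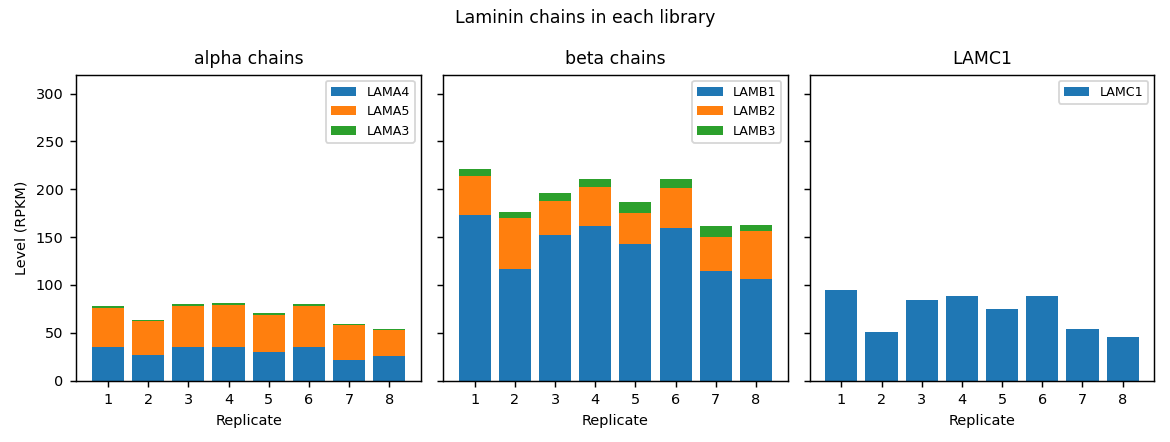
RPKM of laminin alpha and beta chains, stacked by gene, and of LAMC1 in each of the 8 replicates. At canonical transcript lengths, on which the order of LAMB1 and LAMC1 depends, beta chains sum highest in every library.

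LAMB1 and LAMC1, whose products pair before an alpha chain joins, gave the highest Pearson r of the 17 pairs by CPM and by the authors' values. Their CPM gave r = 0.992 and rho = 0.952 (exact permutation p = 9.92e-05, adjusted 8.43e-04 for r; adjusted 0.00970 for rho). The value was r = 0.994 without replicates 2 and 8, and r = 0.991 on the authors' scale. LAMC1 lay below LAMB1 in all 8 libraries per canonical length (log2 ratio -0.98 ± 0.16), but above it when merged exons set the length (0.64), so that the order of these chains is not settled by these data. LAMB1 lies at 7:107564246-107643804 (minus strand, 34 exons) and LAMC1 at 1:182992595-183114727 (plus strand, 28 exons) in hg19. The 250 bases before each start, in GRCh38.p14 at chr7:108003162-108003411 (minus) and chr1:183023170-183023419 (plus), are printed 5′ to 3′ because this pair had the highest Pearson r. Capitals mark GGGCGG or its reverse complement CCGCCC.
LAMB1: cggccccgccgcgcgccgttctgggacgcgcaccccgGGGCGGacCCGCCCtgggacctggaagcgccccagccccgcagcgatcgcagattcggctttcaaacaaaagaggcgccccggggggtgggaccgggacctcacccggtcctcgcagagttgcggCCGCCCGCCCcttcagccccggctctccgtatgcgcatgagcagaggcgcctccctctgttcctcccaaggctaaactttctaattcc
LAMC1: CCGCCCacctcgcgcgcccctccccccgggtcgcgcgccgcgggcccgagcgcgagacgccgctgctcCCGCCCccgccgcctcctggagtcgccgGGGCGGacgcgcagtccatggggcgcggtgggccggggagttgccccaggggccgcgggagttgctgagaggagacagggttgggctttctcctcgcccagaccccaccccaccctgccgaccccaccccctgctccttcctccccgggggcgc
The LAMB1 window holds 4 matches, some of which overlap, and the LAMC1 window 3, and neither holds CCAAT or TATAAA. Of the 31 detected members matched to a RefSeq promoter, 21 (67.7%) held GGGCGG in these 250 bases, 8 held CCAAT and 4 held TATAAA. The shares were 42.3%, 33.0% and 11.1% over all 27305 promoters. Of the 17 undetected members matched, 8 (47.1%) held GGGCGG. The windows of the detected members had a median GC content of 70.0%, against 58.0% over all promoters and 63.2% over the undetected members.

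LAMC1 and LAMA4 gave r = 0.885 (rho = 0.81; exact permutation p = 0.00707, adjusted 0.0200 for r and 0.0475 for rho) by CPM, and r = 0.974 without replicates 2 and 8. The authors' values gave r = -0.108 for the same pair, so this relation did not hold across the normalisations. LAMA3 and LAMB3, chains of an epithelial laminin of hemidesmosomes, were detected at low level, 1.58 ± 0.473 and 8.75 ± 2.12 RPKM. LAMA3 ran from 9.86 to 21.3 (median 19.4) CPM and LAMB3 from 23.9 to 48.5 (median 34.7) CPM.

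The linkers of the networks were all present. NID1, a nidogen that binds both laminin and type IV collagen, ran from 266 to 502 (median 409.6) CPM (68.2 ± 14.5 RPKM), and NID2 from 40.7 to 125 (median 109) CPM (19.5 ± 6.91 RPKM). NID1 was 3.80-fold above NID2 (log2 ratio 1.88 ± 0.38, higher in 8 of 8). Both were highest in replicate 1 and lowest in replicate 8, and their levels gave r = 0.9 and rho = 0.929 (exact permutation p = 9.92e-04, adjusted 0.00422 for r; adjusted 0.0126 for rho), with r = 0.873 without replicates 7 and 8 and r = 0.846 on the authors' scale. AGRN encodes agrin and HSPG2 encodes perlecan, both heparan sulfate proteoglycans of basement membranes. AGRN ran from 509.7 to 724 (median 611) CPM and HSPG2 from 359.9 to 1146 (median 778) CPM, a 3.18-fold range in which replicates 8 and 2 were lowest. HSPG2 was the longest transcript among the detected members, at 14341 nucleotides, and lay below AGRN per kilobase in all 8 libraries (log2 ratio -0.64 ± 0.62). The authors' values left the order unresolved (-0.25 ± 0.40, adjusted p = 0.117, exact sign-flip permutation test). HSPG2 overlaps LDLRAD2 in the table, and whether counting used the strand is not given in the sources used here.

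COL18A1, a collagen with heparan sulfate chains whose released end is endostatin, ran from 262 to 434 (median 289.9) CPM and was highest in replicate 8, against the direction of most members. Its antisense neighbour COL18A1-AS1 overlaps it, and without strand their reads cannot be told apart. The related COL15A1 had 2 to 14 counts per library, 0.0959 ± 0.0602 CPM, so no fold is given.

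COL8A1, a short-chain collagen that forms lattices under endothelium, followed COL4A2 in the order of mean RPKM. It lies at 3:99357440-99515577 in hg19 (plus strand, 4 exons, 5515 nucleotides), and averaged 158 ± 52.6 RPKM. Its values ran from 464 to 1238 (median 924) CPM, with replicates 8, 7 and 2 the lowest at 464, 598 and 603. Its partner chain COL8A2 was 79.8-fold lower per kilobase, at 1.97 ± 0.486 RPKM (log2 ratio 6.29 ± 0.27). The levels of the chains gave r = 0.86 and rho = 0.857 (exact permutation p = 0.00208, adjusted 0.00708 for r and 0.0455 for rho). The value was r = 0.955 without replicates 7 and 8 and r = 0.874 on the authors' scale.

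Of the 11 fibrillar collagen genes, 5 were detected, led by type I collagen, whose common trimer takes more chains from COL1A1 than from COL1A2. COL1A2 averaged 26.3 ± 4.53 RPKM and ran from 109.7 to 179 (median 129.6) CPM. COL1A1 averaged 5.66 ± 1.27 RPKM and ran from 21 to 44.2 (median 33.2) CPM. The RPKM ratio COL1A1/COL1A2 was 0.221 (log2 ratio -2.23 ± 0.45, lower in 8 of 8; -1.99 on the authors' scale). COL5A1, at 12.1 ± 4.13 RPKM, ran from 40.3 to 136 (median 112) CPM, and COL5A2, at 8.35 ± 1.63 RPKM, from 36.9 to 74.5 (median 59.1) CPM. COL5A1 was above COL5A2 in 6 of 8 libraries (log2 ratio 0.46 ± 0.43, exact sign-flip permutation p = 0.0312, adjusted 0.0330), a call that was lost with merged exons (0.16) and on leaving out any one of replicates 1, 3, 4, 5, 6 or 7 (adjusted p of 0.0625 to 0.0660). COL11A2 was the remaining detected fibrillar chain, at 0.461 ± 0.0588 RPKM. COL3A1, usually abundant in mesenchymal cells, had only 2 to 12 counts per library (0.0868 ± 0.0484 CPM), and COL2A1, the cartilage chain, averaged 0.807 ± 0.229 CPM.

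The other collagens were mostly low. Type VI collagen, which makes beaded filaments, had COL6A1 at 2.05 ± 0.289 RPKM and COL6A2 at 1.69 ± 0.432 RPKM, with COL6A1 above COL6A2 in 7 of 8 libraries (log2 ratio 0.30 ± 0.22, exact sign-flip permutation p = 0.0156, adjusted 0.0175). COL6A3, whose chain completes their trimer, was below 1 CPM in replicate 2, at 0.776 CPM, and so did not count as detected. It ranged up to 5.74 CPM in replicate 3, and its log2 ratio to COL6A1 was -2.94 ± 0.85, a size that depended on the setting, at -1.23 with a pseudocount of 1 RPKM, -2.45 on the authors' scale and -3.51 with merged exons. COL7A1, the anchoring-fibril collagen of skin, averaged 2.07 ± 0.575 RPKM, and COL13A1, a transmembrane collagen, 1.7 ± 0.412 RPKM. COL9A3, COL16A1, COL17A1 and COL9A2 completed the detected genes at means of 0.506 to 1.45 RPKM. In all, 14 of 27 collagen types had a detected chain. Of the 25 undetected members, 23 had a mean under 1 CPM and 9 had no count in at least 1 library.

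The cross-linking enzymes were led by LOXL2, which acts on type IV collagen in basement membranes. LOXL2 ran from 367 to 442 (median 410.2) CPM (coefficient of variation 5.53%) and averaged 110.2 ± 6.1 RPKM. LOX, the founding enzyme of the family, averaged 6.14 ± 0.803 RPKM and ran from 26 to 39 (median 30) CPM. LOXL2 was 18.1-fold above LOX (log2 ratio 4.17 ± 0.14, higher in 8 of 8). LOXL1, which acts on elastin, averaged 10.3 ± 2.45 RPKM, LOXL3 1.88 ± 0.454 RPKM and LOXL4 0.579 ± 0.122 RPKM, so that 5 of 5 family members were detected. LOXL3 overlaps DOK1 and HTRA2 in the table, which leaves its count uncertain. SERPINH1, the chaperone HSP47 that folds procollagen in the endoplasmic reticulum, ran from 242 to 398 (median 277) CPM and was highest in replicate 8. On the authors' scale it was highest in replicate 1, at 9.39, and replicate 8, at 9.16, lay below its mean of 9.23. Its mean was 143 ± 26.4 RPKM, and 83.7 RPKM when the longest transcript set the length.

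**Figure D4:**
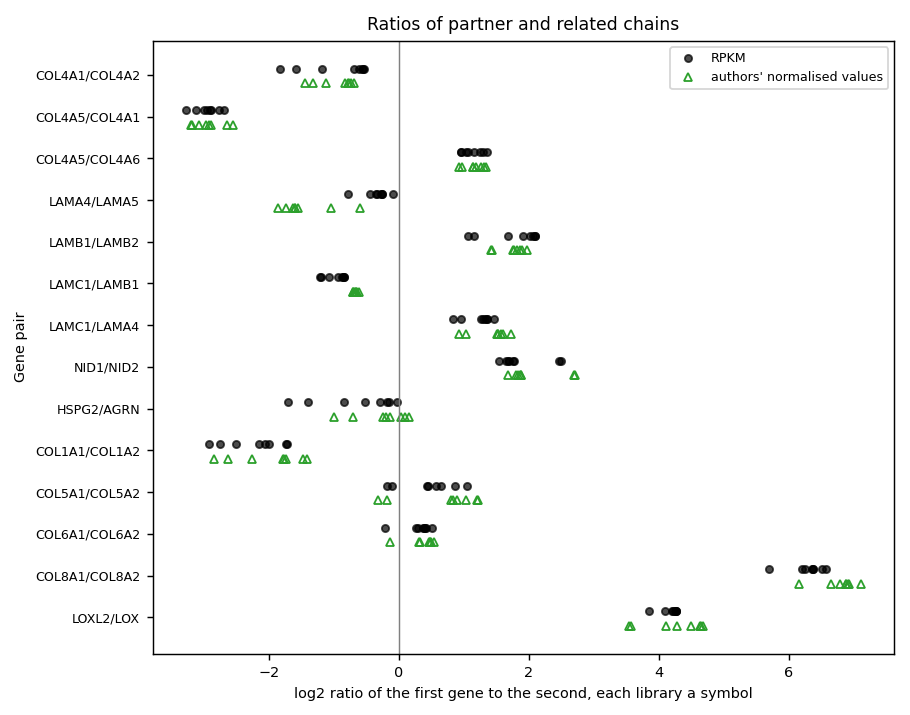
Log2 ratios of 14 chain pairs with both genes detected, from RPKM (circles) and from the authors' normalised values (triangles); each symbol is 1 of the 8 libraries, and 0 marks equal levels. COL8A1/COL8A2 lies farthest above 0, and COL4A5/COL4A1 lies farthest below it.

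Variation between the libraries beyond that of other genes of like abundance was found for 4 members, of which COL25A1, COL12A1 and COL17A1 are described. Against edgeR's dispersion trend over all detected genes, 4 of the 40 detected members passed the goodness-of-fit test at an adjusted p under 0.05, beside 4.66% of all detected genes (558 of 11980). COL25A1, a transmembrane collagen known from amyloid plaques, ran from 3.17 to 20.8 (median 15.8) CPM (adjusted p = 2.43e-05). It was low in replicates 8, 2 and 7, at 3.17, 3.81 and 9.94 CPM, and lay between 14.6 and 20.8 in the other 5. The authors' log2 values for it were likewise lowest in replicates 8 and 2, at 2.38 and 2.41, against 4.16 in replicate 6.

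COL12A1, which decorates fibrils of type I collagen, ran from 11.9 to 47.9 (median 44.3) CPM (edgeR adjusted p = 0.00712). It was lowest in replicates 8 and 2, at 11.9 and 17.6 CPM. With offsets for transcript length and GC content its call was lost (edgeR adjusted p = 0.339), and on the authors' scale replicates 8 and 2 were still lowest, at 4.13 and 4.46, while replicate 7, at 5.06, was among the highest. COL17A1, a hemidesmosome collagen, ran from 1.4 to 6.34 (median 3.87) CPM (edgeR adjusted p = 0.00647), with the lowest values in replicates 2 and 8 and the highest in replicates 3 and 5. On the authors' scale these were again its lowest and highest libraries. The 4 calls rested on few libraries. Without replicate 8, 2 members passed, COL17A1 and COL25A1, and without replicate 2 COL17A1 (edgeR adjusted p = 0.121) did not, while COL6A3, detected in the remaining libraries, did (0.0139). Without both, 0 passed by edgeR, with 6 at an unadjusted p under 0.05. DESeq2's dispersion trend called 14 members, and 2811 of all detected genes. With the length and GC offsets 8 members and 781 of all detected genes passed. Among these members were NID2 (edgeR adjusted p = 4.76e-06), COL5A1 (1.89e-05), COL17A1 (2.49e-04), COL25A1 (5.25e-04), HSPG2 (0.0150), LAMB3 (0.0249) and COL4A1 (0.0374).

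Replicate 8 was the low library for the members. Of the 40 detected members, 24 had their lowest CPM there, beside 31.1% of all detected genes. By the authors' values the count was 21 of 40, beside 23.5%. The median log2 deviation of the members from their own means in replicate 8 was -0.48 by CPM and -0.38 on the authors' scale, and 0.04 and 0.02 over all detected genes. Replicate 2 had member medians of -0.18 and -0.23. Replicate 1 held the highest CPM of 11 of the 40 members, beside 16.4% of all detected genes, and the highest authors' value of 13, beside 10.2%. The members are longer and richer in GC than other genes, with a median transcript of 5631 nucleotides against 3352 and a median GC content of 58.2% against 48.4%. Across the 40 members, the deviation in replicate 8 and log2 length gave r = -0.614 by CPM and r = -0.229 on the authors' scale. Over the 11636 detected genes of known length the values were r = -0.618 and r = -0.097. Each is a description over genes of the same libraries, which are not independent replicates. How much of the low values comes with length was not tested beyond these scales. The members' SD over libraries had a median of 0.31 on the log2(CPM + 1) scale and 0.27 on the authors' scale, beside 0.25 and 0.16 over all detected genes.

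**Figure D5:**
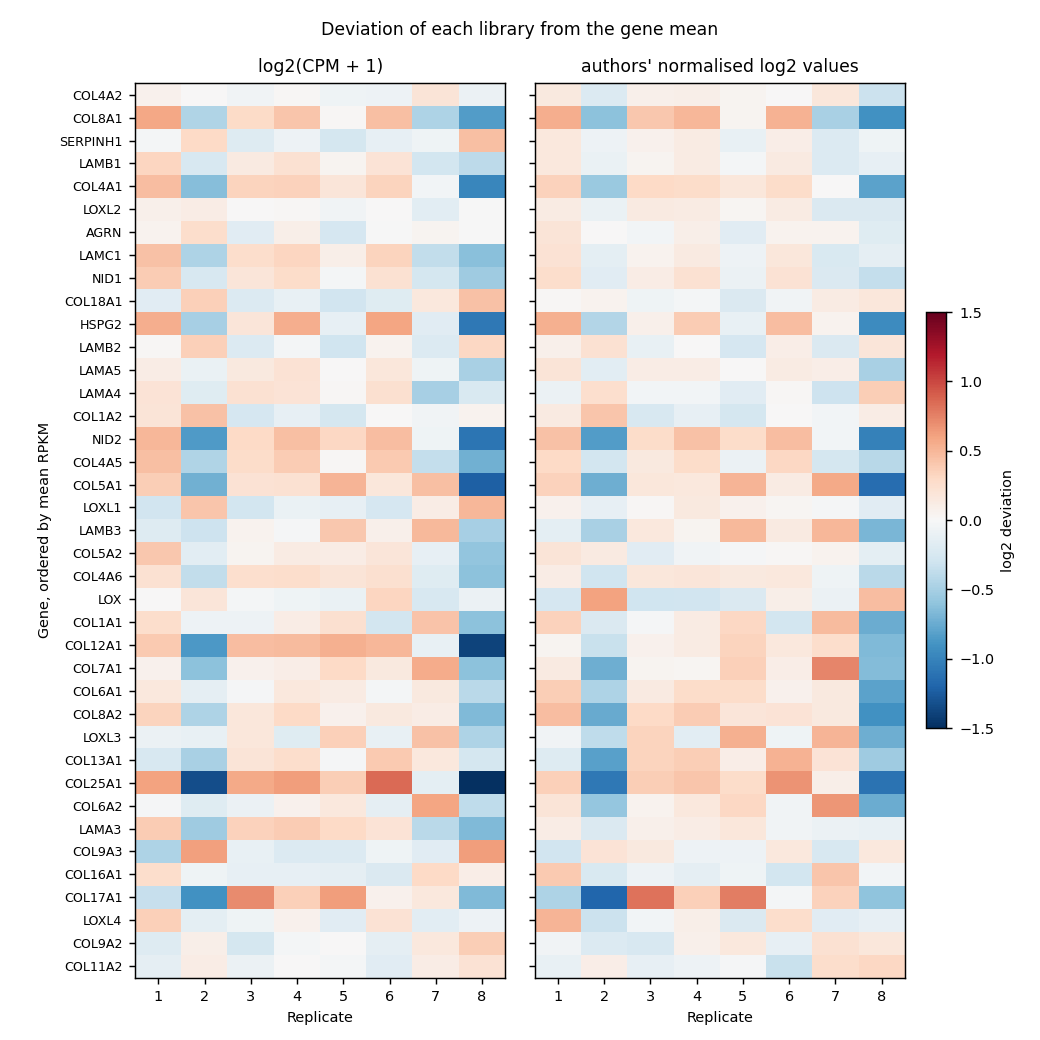
Log2 deviation of 39 detected members, each from its own mean, in each of the 8 replicates, by CPM and by the authors' normalised values, on a colour scale that ends at -1.5 and 1.5. Most members are below their mean in replicates 8 and 2 on both scales. By CPM, 6 members are highest in replicate 8 (COL18A1, SERPINH1, LOXL1, COL9A3, COL9A2 and COL11A2), beside 36.0% of all detected genes. By the authors' values 3 are highest there (COL18A1, COL11A2 and LAMA4), beside 27.5%.

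Genes that fold, export and bind these proteins were read from fixed lists, beside the 51.3% of all listed genes that were detected. Of 17 genes for collagen folding and modification, 16 were detected and none varied above the trend, beside 4.66% of all detected genes. P4HB, the beta subunit of prolyl 4-hydroxylase, averaged 989.6 ± 220.4 CPM (SD, n = 8), the lysyl hydroxylase PLOD2 433 ± 124 CPM, and the galactosyltransferase COLGALT1, listed under its older symbol GLT25D1, 298 ± 11.7 CPM. COLGALT2, listed as GLT25D2, was not detected. For export and removal of propeptides 7 of 14 genes were detected, led by the coat proteins SEC23A (205 ± 61.3 CPM) and SEC24D (97.4 ± 27.1 CPM) and the procollagen C-proteinase BMP1 (84 ± 8.2 CPM). ADAMTS2, ADAMTS3 and ADAMTS14, the procollagen N-proteinases, each averaged under 1 CPM.

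Of 18 other basement membrane components, 12 were detected, with fibronectin, FN1, at 5495 ± 1953 CPM, the collagen-binding SPARC at 1265 ± 129.6 CPM and peroxidasin, PXDN, which cross-links type IV collagen, at 376 ± 72.2 CPM. Of 14 receptors for collagen and laminin, 12 were detected, with the integrin subunits ITGB1 at 1515 ± 350.4 CPM and ITGA3 at 552 ± 48.3 CPM and dystroglycan, DAG1, at 303 ± 36.5 CPM. The collagen-binding subunits ITGA2 (168 ± 74.3 CPM, edgeR adjusted p = 0.00119) and ITGA1 (68.5 ± 28.1 CPM, edgeR adjusted p = 0.0219) varied above the trend, and both were lowest in replicate 8. Of the 12 detected receptors, these 2 alone varied above the trend, beside 4.66% of all detected genes. In replicate 8, 5 of the 12 were lowest, beside 31.1% of all detected genes. The part of transcript length in these values was not tested.

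Markers of the labelled cell type were present, with 10 of 10 endothelial genes detected and a summed level of 1898 to 3541 CPM per library. Of these, 1 was lowest in replicate 8, and PECAM1, TIE1, ESAM, CLDN5 and EMCN were highest there. Among all detected genes, 31.1% were lowest and 36.0% were highest in that library. CLDN5, a tight junction claudin, was the 1 endothelial gene that varied above the trend (edgeR adjusted p = 7.36e-04), beside 4.66% of all detected genes. It stood at 252 CPM in replicate 8 and 237 CPM in replicate 2, against 71.5 to 94.7 CPM in the others. These libraries had the most negative slopes on transcript length, -0.33 and -0.22. The part of length in the CLDN5 values was not tested, nor was the part of CLDN5 in the members' values. Of 8 mural cell genes 5 were detected, at a summed 47.3 to 74.2 CPM: CSPG4 at 32.9 ± 8.97, RGS5 at 14.4 ± 3.77, PDGFRB at 9.57 ± 1.63, ACTA2 at 4.74 ± 1.8 and ABCC9 at 3.67 ± 0.968 CPM. NOTCH3, DES and KCNJ8 averaged under 1 CPM, and 3 of the 5 detected mural genes were lowest in replicate 8, beside 31.1% of all detected genes. None of 8 fibroblast genes was detected, at a summed 0.781 to 1.76 CPM, with DCN at 0 in 7 libraries. None of 6 astrocyte genes was detected, at a summed 0.820 to 1.19 CPM, with AQP4 at 0 in all 8. In bulk RNA, fewer cells of a type and less RNA per cell cannot be told apart, and the part of the mural genes' level in the members' values was not tested.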

How the data were processed

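Polyadenylated RNA of 8 hCMEC/D3 replicates was sequenced. The submitters' processing notes name CASAVA 1.9, TopHat2 2.0.6, HTSeq and the build hg19. The deposited table holds raw counts per gene and, for 13962 genes, the authors' values after conditional quantile normalisation, per the file headers. From their range these deposited values were read as log2. The annotation, the parameters of that normalisation and any use of strand are not given in the sources used here. All 186768 counts are even (0 odd), so a count was read as one end of a read pair, and Wilson intervals (95%) and the floor of 3 read pairs use halved counts. All 16 columns of values matched a sample.

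TMM-scaled CPM, dispersions and the goodness-of-fit test came from edgeR 4.0.16 in R 4.3.3, intercept only, over all genes with at least 1 CPM in 8 of 8 libraries, with Benjamini-Hochberg adjustment and a threshold of 0.05. The exact permutation tests used Python 3.11.15 with numpy 2.4.6. RPKM used the Ensembl canonical transcript of GENCODE 44 mapped to GRCh37, matched for 21456 of 23346 genes (19467 by symbol, 1989 by synonym). Listed starts were 1 less than the annotation's for 5738 genes and equal for 652, so they were read as 0-based and printed 1-based. Promoters came from RefSeq on GRCh38.p14. The pseudocount was 0.01 RPKM for ratios and 1 CPM for correlations. The scripts were tested on simulated data. Members, pairs and lists were chosen with earlier results of these data known. Values are given for every type IV collagen, laminin, nidogen, proteoglycan, multiplexin and lysyl oxidase, SERPINH1, the 12 other collagens with the highest mean RPKM, every member above the trend and every gene of a pair, apart from 1 detected member that enters the counts and sums but is not reported here. Of the undetected members and the pathway lists, examples are named. Alternatives were DESeq2 1.42.0, other filters, lengths, pseudocounts and left-out libraries.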

Additional observations from a re-analysis of the deposited data

Results flagged for a closer look

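In 4 results, 1 of the 8 libraries lay apart from the others by Dixon's gap rule, which chance meets in about 1 in 20 groups. LAMA5 was 311 CPM in replicate 8, where the next lowest library had 409.8 CPM. The log2 RPKM ratio COL6A1/COL6A2 was -0.21 in replicate 7, the only library in which it was negative, and 0.25 in the next. For COL8A1/COL8A2 the log2 ratio was 5.69 in replicate 7 and 6.21 in the next. LOXL2/LOX had a log2 ratio of 3.84 in replicate 6, below 4.10 in the next. LAMA5 was the only one of the 40 detected members with such a library in its CPM, beside 2.08% of all detected genes. For the ratios, no share over other gene pairs was computed.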

How the results depend on the processing

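No paired analysis was possible because all 8 libraries belong to 1 group. Detected members numbered 40 to 48 over the filters and scalings tried and 40 to 41 with 1 library left out. Members above the variation trend numbered 4 (558 of all detected genes), but 14 (2811) with DESeq2's dispersion trend, 8 (781) with offsets for length and GC content, 2 to 4 (381 to 491) with 1 library left out and 0 (335) without replicates 2 and 8. Of the 19 chain ratios, 18 passed, and 17 to 18 with 1 library left out. The share of other gene pairs that would pass was not computed, so this count says nothing particular to these chains. With merged exons 15 passed: LAMC1/LAMB1 reversed to 0.64, and LAMB1/LAMB2 (0.31), HSPG2/AGRN (-0.42) and COL5A1/COL5A2 (0.16) missed the threshold. COL5A1/COL5A2 also missed it with any one of 6 libraries left out. HSPG2/AGRN reversed to 0.33 when length was left out. Without the 2 libraries farthest from the median, r reversed for COL4A1/COL4A2 (-0.534) and COL5A1/COL5A2 (-0.172). On the authors' scale it reversed for LAMA4/LAMA5 (-0.805), LAMB1/LAMB2 (0.163), LAMC1/LAMA4 (-0.108), HSPG2/AGRN (0.789) and LOXL2/LOX (-0.621). Apart from the fewer libraries and other lengths named, the cause was not tested. Without COL4A2 the members' summed share was 0.767%. Depth limits the undetected members: several had fewer than 3 read pairs in a library. With 8 libraries, no sign-flip p can fall below 0.00781.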
